A study of Mus musculus with 3 samples.

Results

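Fatty acid oxidation genes and targets of the receptor PPARalpha were followed in mouse liver as 36 named genes. The genes were picked by symbol, with the Cyp4a hydroxylase genes left out, and the set was chosen with earlier results of these data known. All 36 were found among the 30921 gene symbols of the main probe sets, each read by the probe set with the highest mean over the arrays. The study measured RNA from 10-week-old ICR mice, an outbred stock, on 3 MoGene-2_0-st arrays with 1 array per group. The untreated mice had no treatment. The TMA mice received distilled water for 2 weeks and then trimethylamine (TMA), a volatile amine with a fishy odour, for 24 hours. The EEC+TMA mice were given Ecklonia cava, a brown alga, as an ethanol extract by mouth for 2 weeks, and then TMA for 24 hours. All mice were 8 weeks old at the start. The labels read here do not state the sex of the mice, the doses, the route of TMA or any pooling of animals. Each group had 1 array and no spread between replicates, so no test was possible, and each difference is one between arrays, not conditions. In whole tissue, fewer cells of a type and less RNA per cell cannot be told apart.

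Mitochondria burn fatty acids by beta-oxidation. Long-chain acyl groups enter through the carnitine shuttle, and rounds of dehydrogenation, hydration, a second dehydrogenation and thiolysis then shorten them and pass electrons to the respiratory chain. Peroxisomes shorten very long chains in a related pathway. PPARalpha is a nuclear receptor that senses fatty acids, pairs with RXR, and in liver switches on both pathways during fasting, together with genes for lipid binding, lipid droplets and secreted factors.

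The DNA element that PPARalpha and RXR bind is known as a direct repeat of AGGTCA spaced by a single base, so the promoters of the genes were read for it. RefSeq promoter windows of assembly GRCm38.p6, 250 bases before to 50 after the start, were found for 30 of the 36 genes. AGGTCA on either strand lay in the windows of 8 of these 30 (26.7%), against 18.1% of the 27025 genes in the table. The direct repeat itself, on either strand, lay in none of them and in 0.0481% of all genes. A looser repeat, in which the fourth base of each copy may be any base, lay in 1 of the 30, Fabp1, and in 0.451% of all genes, and its match in Fabp1 contains 1 of the AGGTCA matches. The stretches listed show where the letters were found upstream of 4 genes that the results return to, with the match in capitals. TGACCT is AGGTCA read on the other strand. They run 5′ to 3′ on the strand of the gene, with up to 50 bases on each side of the match within the window and before the outermost annotated start. Positions count back from -1, the base before the RefSeq start. A match is a description of these letters, and no match says only that they were not in the window.
Fabp1, chr6:71199762-71199826, plus strand: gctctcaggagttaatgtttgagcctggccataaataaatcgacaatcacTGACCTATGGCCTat
Cpt1a, chr19:3323157-3323262, plus strand: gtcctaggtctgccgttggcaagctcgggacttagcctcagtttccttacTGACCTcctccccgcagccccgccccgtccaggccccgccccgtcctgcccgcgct
Plin2, chr4:86670222-86670309, minus strand: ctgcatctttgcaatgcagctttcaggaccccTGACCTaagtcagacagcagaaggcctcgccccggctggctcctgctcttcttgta
Acadvl, chr11:70015460-70015565, minus strand: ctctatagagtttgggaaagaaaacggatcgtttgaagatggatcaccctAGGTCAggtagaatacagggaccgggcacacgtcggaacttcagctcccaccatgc

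A gene was taken as measured on an array if its log2 value was at or above the 95th percentile of the 1541 probe sets for chemosensory receptors, which liver should lack. That background was 3.15 on the untreated, 3.25 on the TMA and 3.16 on the EEC+TMA array. It left 15711, 15749 and 16129 genes measured on both arrays for TMA minus untreated, EEC+TMA minus TMA and EEC+TMA minus untreated. Between 43.4% and 54.7% of these genes had exactly the same value on the arrays compared. The poly-A controls are made from RNA that is spiked into a sample. Of these, 38 of 39 were higher on the TMA than on the untreated array, with a median log2 difference of 0.99. On the EEC+TMA array 37 of 39 were lower than on the TMA array, with a median of -0.99. Of 18 bacterial spike controls 16 were higher on the TMA than on the untreated array (median 0.44). On the EEC+TMA array 16 of them were lower than on the TMA array (median -0.46). Exon normalization controls had medians of 6.43, 6.07 and 6.49 on the untreated, TMA and EEC+TMA arrays. All 10 hepatocyte markers, among them Alb and Cps1, were measured on all 3 arrays.

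Most of the 36 genes lay well above background. The range over the 3 arrays had a median of 0.30 on the log2 scale and was under 0.2 for 14 genes. The same range over all genes is not given here, so these values do not tell whether the members varied less than other genes. Abcd2 had the widest range, 1.73, and the next widest was 0.69. Crat, Acot4, Cidec and Vnn1 read the same value on all 3 arrays. Vnn1, which encodes the pantetheinase vanin-1, read 3.16, which is below background on the TMA array, and the other 35 genes were measured on all 3 arrays. The TMA array gave the lowest value for 26 of these 35 genes (74.3%), against 29.3% of all 15649 genes measured on 3 arrays. Among genes with a mean log2 value of at least 8, it was lowest for 20 of 21 members (95.2%), against 69.2% of all 1180. The EEC+TMA array gave the highest value for 21 of the 35 (60.0%), against 18.8% of the 15649 genes. At the level of at least 8 it was highest for 16 of 21 members (76.2%), against 46.4% of the 1180 genes. Hadhb counts among these members by a doubtful probe set, described below.

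**Figure D1:**
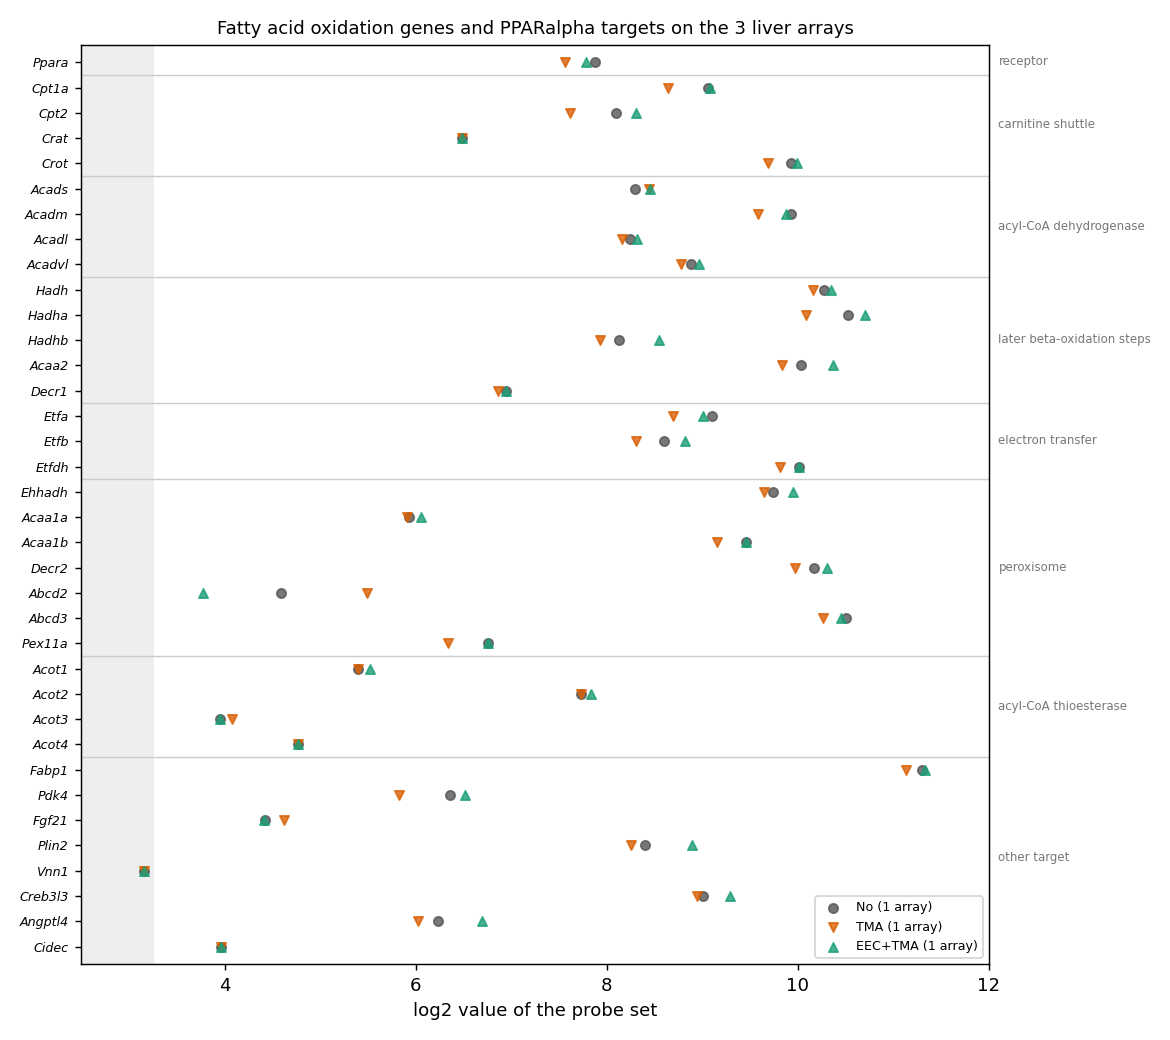
Log2 value of each gene's probe set on the untreated (No, circle), TMA (down triangle) and EEC+TMA (up triangle) array, with genes in rows by role and 1 array per group. The grey band ends at the highest background level, 3.25. The TMA triangle is the leftmost symbol for most genes, Abcd2 is the widest row, and rows such as Crat and Acot4 show 1 value.

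TMA against no treatment bears on the liver's response to trimethylamine, with distilled water given beforehand. The untreated mice had no water pretreatment, so its effect and that of TMA cannot be told apart here. Of the 35 measured genes, 26 were lower on the TMA array, 4 were higher and 5 were identical, with a median log2 difference of -0.17. Among all measured genes 37.6% were lower, 19.0% were higher and 43.4% were identical, and the median was 0. The lower share was larger among well expressed genes: of the 1180 genes with a mean of at least 8, 78.4% were lower, with a median of -0.23. Of the 21 members at that level 20 were lower, with a median of -0.20. Hadhb, among these 20, was read from a probe set that is not marked as unique. With unique probe sets only, 25 of the 35 members were lower. No member was 2-fold apart, against 1.85% of all measured genes. Abcd2 alone was at least 1.5-fold apart, and it was higher, whereas 8.63% of all measured genes were that far apart.

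EEC+TMA against TMA bears on the effect of the extract given before trimethylamine. This comparison uses the same TMA array, so its differences are not independent of the first. Of the 35 genes, 29 were higher on the EEC+TMA array, 3 were lower and 3 identical, with a median of 0.22. All measured genes were higher in 36.4%, lower in 19.2% and identical in 44.3%. The higher share was 76.5% over genes with a mean of at least 8, whose median was 0.23. All 21 members at that level were higher, with a median of 0.31. Cpt2, Pdk4, Angptl4, Plin2, Hadhb and Hadha were at least 1.5-fold higher, 6 of 35. Of all measured genes 4.69% passed that size, or 14.7% of those with a mean of at least 8, where 4 of the 21 members did. Hadhb, also among the 21, was read from a probe set that is not marked as unique, and with unique probe sets only 5 members passed. With unique probe sets 28 of the 35 members were higher, in place of 29. Abcd2 was the 1 member at least 2-fold apart, on the lower side, against 0.984% of all measured genes. At least 1.5-fold lower were 1 member, Abcd2, and 2.11% of all measured genes, which makes 7 members and 6.80% of all genes 1.5-fold apart in either direction.

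The receptor gene Ppara read 7.88 on the untreated, 7.57 on the TMA and 7.79 on the EEC+TMA array. It was thus lowest on the TMA array, by 1.24-fold against no treatment and by 1.17-fold against EEC+TMA. The second of these differences was 0.00075 (log2) after quantile normalization.

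The carnitine shuttle held some of the wider differences among the members. Cpt1a, the rate-limiting acyltransferase of the outer mitochondrial membrane, read 9.06, 8.64 and 9.08 on the untreated, TMA and EEC+TMA arrays. The TMA value was 1.34-fold below the untreated and 1.35-fold below the EEC+TMA value, and the untreated and EEC+TMA values lay 0.016 (log2) apart. For TMA minus untreated, Cpt1a was at -0.420 and the lower quartile of genes with a mean of at least 8 at -0.432. For EEC+TMA minus TMA, Cpt1a was at 0.4362 and the upper quartile of these genes at 0.4365. Both differences thus lay within the middle range of genes at that level. Cpt2, the inner membrane partner of Cpt1a, read 8.10, 7.62 and 8.31. The TMA array was again the lowest and the EEC+TMA array the highest, 1.62-fold above it. Crot, the peroxisomal octanoyltransferase, read 9.93, 9.68 and 9.99. Crat, the acetyltransferase for short chains, read 6.48 on each array. Cpt1a and Cpt2 were lowest on the TMA array under each of the 4 scalings compared, with log2 differences from no treatment of -0.42 to -0.20 for Cpt1a and -0.48 to -0.23 for Cpt2. Crot turned to 0.013 above no treatment under loess.

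The acyl-CoA dehydrogenases catalyse the first step of each round and divide the work by chain length. Acadvl, for very long chains, read 8.88, 8.77 and 8.96 on the untreated, TMA and EEC+TMA arrays. Acadl, for long chains, read 8.25, 8.16 and 8.31. The values of both lay close together, and for both the sign of each difference that involves the TMA array turned under quantile normalization and loess. Acadm, for medium chains, read 9.93, 9.59 and 9.88, the widest of the 4, with the TMA array 1.27-fold below the untreated array. Acads, for short chains, read 8.30, 8.45 and 8.45, so that the untreated array was the lowest. The AGGTCA match in the Acadvl promoter, 1 of the 4 shown with a match, lies between positions -87 and -82 from the start.

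The later steps of the mitochondrial cycle were lower on the TMA array for all 5 genes as deposited, and 4 of the 5 were higher on it under quantile normalization. Both counts include Hadhb, whose probe set is doubtful, as given below. Hadha, the alpha subunit of the trifunctional protein, read 10.53, 10.09 and 10.70 on the untreated, TMA and EEC+TMA arrays. Hadha kept its direction under the 4 scalings, from -0.44 to -0.16 for TMA minus untreated and from 0.34 to 0.61 for EEC+TMA minus TMA. Acaa2, the mitochondrial thiolase, read 10.03, 9.83 and 10.36, highest on the EEC+TMA array by 1.44-fold over TMA and 1.26-fold over no treatment. Hadh, the dehydrogenase for short-chain hydroxyacyl-CoA, read 10.28, 10.16 and 10.35. Decr1, the reductase needed for unsaturated chains, read 6.94, 6.86 and 6.94. Acaa2, Hadh and Decr1 were above the untreated level on the TMA array under quantile normalization and loess.

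Hadhb, the beta subunit of the trifunctional protein, rests on a doubtful reading. The probe set chosen by the highest mean read 8.13, 7.92 and 8.55, but it lies on chromosome 2 (108948780 to 108950742), only 2 of its 13 possible probes are direct, and it is not marked as unique. The probe set on chromosome 5 (30155248 to 30184593), the Hadhb locus next to Hadha, read 3.52 on each array, near background. The 1.54-fold difference between EEC+TMA and TMA was therefore 0 with unique probe sets only. Hadha and Hadhb lie head to head. The 85 bases between the 2 annotations, shown because they lie between the starts of both subunits, hold no AGGTCA.
Hadha and Hadhb, chr5:30155163-30155247, plus strand: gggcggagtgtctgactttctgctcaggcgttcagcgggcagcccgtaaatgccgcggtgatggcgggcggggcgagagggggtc

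Electrons from the dehydrogenases pass through the electron transfer flavoprotein. Its alpha subunit gene Etfa read 9.10, 8.69 and 9.01 on the untreated, TMA and EEC+TMA arrays. The beta subunit gene Etfb read 8.60, 8.30 and 8.82, and Etfdh, the oxidoreductase that hands the electrons to ubiquinone, read 10.01, 9.82 and 10.01. The TMA array was lowest for each of the 3. Etfa and Etfb kept this order of TMA against the other arrays under the 4 scalings, and Etfdh turned to 0.032 and 0.071 above no treatment under quantile normalization and loess.

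**Figure D2:**
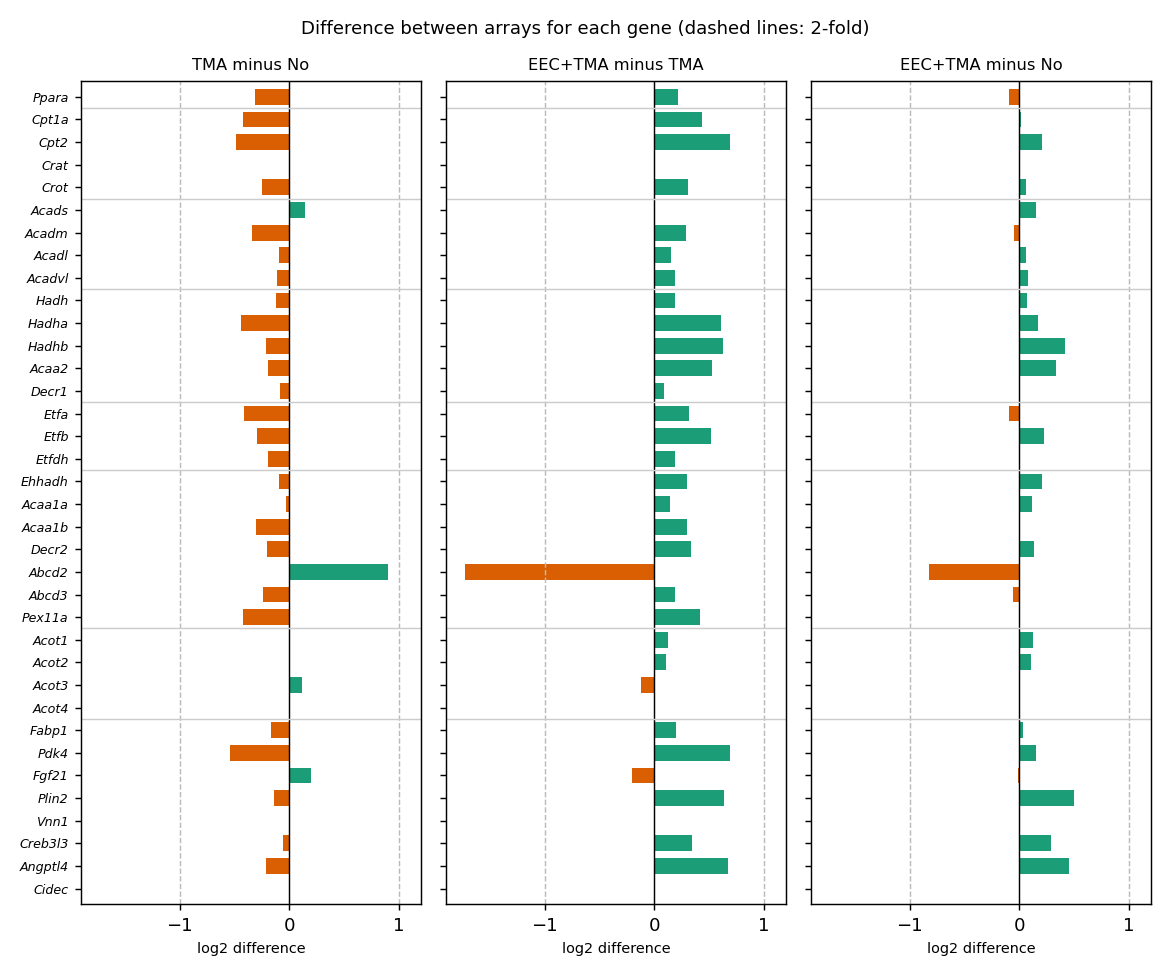
Log2 difference between arrays for each gene, with TMA minus No on the left, EEC+TMA minus TMA in the middle and EEC+TMA minus No on the right. Bars to the right (green) are higher on the first array named, bars to the left (orange) lower, dashed lines mark 2-fold, and there are no replicates and no error bars. Bars point left for 26 genes in the first panel and right for 29 in the second, and Abcd2 points the other way in both.

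Among peroxisomal genes, Abcd2 stood apart from the others. Abcd2, an importer of very long chain fatty acids (chromosome 15, 91145871 to 91191807), read 4.59 on the untreated, 5.50 on the TMA and 3.77 on the EEC+TMA array. The TMA array was highest and the EEC+TMA array lowest, 1.87-fold above and 1.77-fold below no treatment. EEC+TMA was 3.31-fold below TMA, and 3 of 15749 measured genes lay at least as low in that comparison. This difference ran from -1.79 to -1.73 over the 4 scalings. The EEC+TMA value lay 0.61 (log2) above background, and the gene no longer counted as measured there with the 99th percentile as background. All 20 of its probes are direct, and its probe set is marked as unique. The poly-A controls had a median log2 difference of 0.99 for TMA minus untreated and -0.99 for EEC+TMA minus TMA, the same directions as Abcd2. For EEC+TMA minus untreated their median was -0.069. The part of the shift in these controls in the Abcd2 values was not tested. Adipocytes express Abcd2 too. Of 8 adipocyte markers 3 were measured on all 3 arrays, and Adipoq, Lep, Retn and Ucp1 were below background on every array. The summed linear level of all 8 was 86.3, 84.7 and 86.3 on the untreated, TMA and EEC+TMA arrays. The part of adipocytes in the Abcd2 values was not tested.

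The other peroxisomal genes had narrower ranges. Abcd3, a related transporter of the peroxisomal membrane, read 10.51, 10.27 and 10.45 on the untreated, TMA and EEC+TMA arrays. Ehhadh, the bifunctional enzyme, read 9.74, 9.64 and 9.94, and Decr2, the peroxisomal reductase for unsaturated chains, read 10.17, 9.97 and 10.30. The EEC+TMA array was the highest for Ehhadh and Decr2 under all 4 scalings, whereas the TMA array was lowest in the deposited values and after median centring only. Pex11a, which promotes peroxisome division, read 6.76, 6.34 and 6.76, lowest on the TMA array by 1.34-fold.

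The 3-ketoacyl-CoA thiolases Acaa1a and Acaa1b lie near each other on chromosome 9 and differed in range. Acaa1b read 9.46, 9.16 and 9.46, with the TMA array 1.23-fold below both others. Acaa1a read 5.93, 5.91 and 6.05, with values within 0.15. Both probe sets are marked as unique. The sign of Acaa1a for TMA minus untreated turned under the other 3 scalings.

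The acyl-CoA thioesterase genes, which release free fatty acids from CoA, form a cluster on chromosome 12 and were nearly flat. Acot1, the cytosolic enzyme, read 5.39, 5.39 and 5.52 on the untreated, TMA and EEC+TMA arrays. Acot2, the mitochondrial enzyme, read 7.73, 7.73 and 7.84. The EEC+TMA array was the highest for both, by 1.09-fold and 1.08-fold over the others, but for Acot2 it was below the TMA array under quantile normalization and loess, by log2 differences of -0.11 and -0.044. Acot3 read 3.95, 4.07 and 3.95, highest on the TMA array, and Acot4 read 4.77 on each array. No gene of the cluster was lower on the TMA than on the untreated array under any of the 4 scalings.

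Targets outside beta-oxidation included Pdk4, Angptl4 and Plin2, with ranges over the arrays of 0.69, 0.67 and 0.64. Pdk4, a kinase that shuts pyruvate out of the citric acid cycle when fat is burnt, read 6.36, 5.83 and 6.52 on the untreated, TMA and EEC+TMA arrays. The TMA array was 1.45-fold below the untreated and 1.62-fold below the EEC+TMA array, under all 4 scalings in the same direction. Angptl4, a secreted inhibitor of lipoprotein lipase, read 6.24, 6.03 and 6.70. The EEC+TMA array was highest, 1.59-fold above TMA and 1.37-fold above no treatment. Plin2, the coat protein of lipid droplets, read 8.40, 8.26 and 8.89, so that the EEC+TMA array was again highest, by 1.56-fold and 1.41-fold. For Plin2 the TMA array was above no treatment under quantile normalization and loess, by 0.12 and 0.055. Under all 4 scalings Angptl4 and Plin2 were higher on the EEC+TMA array than on both others.

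The remaining targets had narrower ranges. Creb3l3, a liver transcription factor that works with PPARalpha, read 9.01, 8.95 and 9.29, with EEC+TMA 1.22-fold above no treatment. Fabp1, the fatty acid binding protein of the hepatocyte cytosol, read 11.30, 11.13 and 11.33. The looser repeat in the Fabp1 window, between positions -67 and -55 from the start, thus stood beside a range of 0.20 over the arrays. Fgf21, a fasting hormone, read 4.42, 4.62 and 4.42, highest on the TMA array by 1.14-fold. Cidec, a lipid droplet protein, read 3.96 on each array. Fgf21 and Cidec, like Acot3, lay under 1.5 (log2) above background on every array.

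EEC+TMA was last set against no treatment. Of the 36 genes 21 were higher, 6 lower and 9 identical, with a median of 0.064, against 25.5%, 19.9% and 54.7% of all 16129 measured genes and a median of 0. Of the 21 members with a mean of at least 8, 16 were higher, against 54.0% of the genes at that level. Plin2 (log2 difference 0.50), Angptl4 (0.46), Hadhb (0.42), Acaa2 (0.33) and Creb3l3 (0.29) were the highest, and Abcd2 (-0.82) was the lowest. The Hadhb value is that of the doubtful probe set, and the probe set at the Hadhb locus read 3.52 on each array. Abcd2 alone was at least 1.5-fold apart, against 4.05% of all measured genes, and no gene was 2-fold apart, against 1.18%. The untreated array is shared with the first comparison and the EEC+TMA array with the second.

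**Figure D3:**
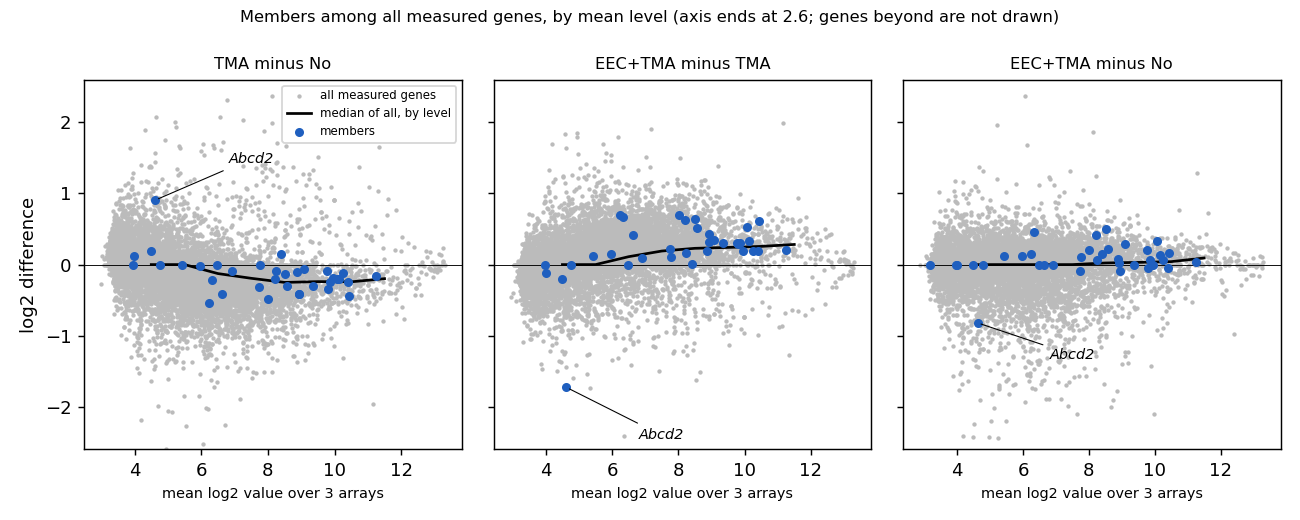
Log2 difference against the mean log2 value over the 3 arrays, for all genes measured on both arrays (grey), the members (blue) and the median of all genes in bins of 1 log2 unit that hold at least 20 genes (black line). In the first 2 panels the black line leaves 0 with rising level, to -0.23 and 0.23 in the median of genes with a mean of at least 8, and most members lie along it. Abcd2 lies far from the line.

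The differences depended on level and on the scaling of the arrays. With the deposited values the median of the 21 members with a mean of at least 8 lay beside that of the 1180 genes at that level, at -0.20 against -0.23 for TMA minus untreated and 0.31 against 0.23 for EEC+TMA minus TMA. After quantile normalization the 35 members had medians of 0.031 and 0.033 in these comparisons, with 20 higher and 15 lower in the first and 22 higher and 12 lower in the second, when 49.1% and 55.0% of all measured genes were higher. Loess on the mean level gave 0.032, with 22 higher and 13 lower, and 0.058, with 21 higher and 14 lower. The 21 members with a mean of at least 8 had medians of 0.019 and 0.15 under quantile normalization, against -0.034 and 0.038 for the 1180 genes. Under loess these medians were 0.055 and 0.069, against 0.0061 and 0.0032. In EEC+TMA minus untreated the median stayed between 0.064 and 0.081 over the 4 scalings, with 31 higher and 5 lower under quantile normalization, when 78.8% of all measured genes were higher. Thus the lower values on the TMA array were shared with other genes of like level. For TMA minus untreated the median of the members did not keep them under quantile normalization and loess. For EEC+TMA minus TMA the median of the 21 members stayed above that of the 1180 genes under all 4 scalings.

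**Figure D4:**
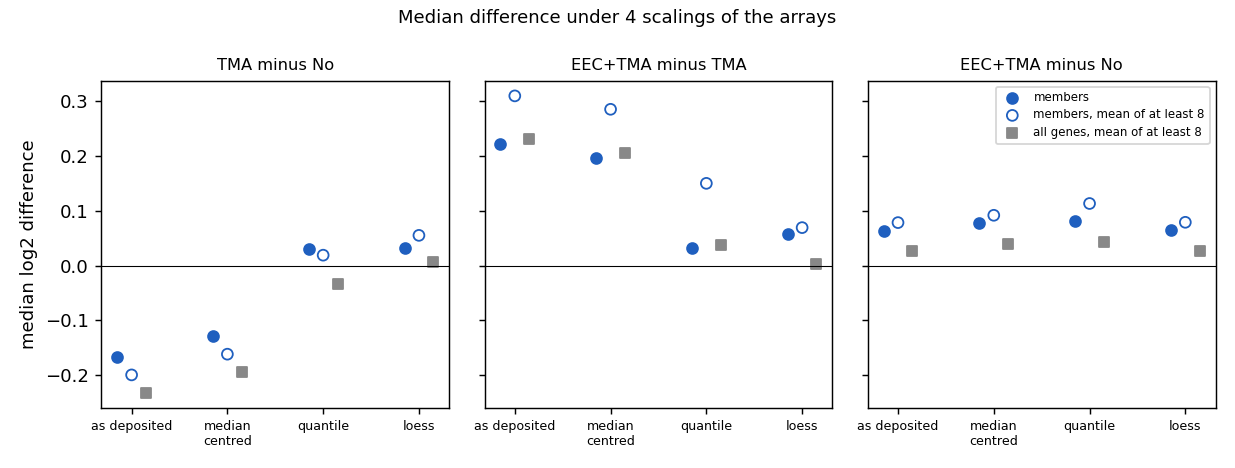
Median log2 difference of the measured members (filled circle), of the 21 members with a mean of at least 8 (open circle) and of the 1180 genes with such a mean (square), under 4 scalings of the arrays, for each comparison. In the first 2 panels all 3 symbols move toward 0 with quantile normalization and loess, and in the third they stay between 0.026 and 0.11. The open circle lies above the square in every panel and under every scaling.

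Other genes of the same pathways are given by list, to be read against all measured genes, of which 37.6% were lower on the TMA than on the untreated array and 36.4% higher on the EEC+TMA than on the TMA array, or 78.4% and 76.5% of those with a mean of at least 8. For uptake and activation of fatty acids, 12 of 16 measured genes were lower on the TMA than on the untreated array (median -0.20) and 12 were higher on the EEC+TMA than on the TMA array (median 0.24). Slc22a5, the carnitine importer, read 5.05, 4.65 and 5.50 on the untreated, TMA and EEC+TMA arrays, 1.80-fold higher on EEC+TMA than on TMA. Acsl1, the main long-chain acyl-CoA synthetase of liver, read 11.54, 11.07 and 11.44. Among 24 other beta-oxidation enzymes 17 were lower on the TMA array (median -0.15) and 19 were higher on the EEC+TMA array than on TMA (median 0.17). Under quantile normalization 12 of the 24 were higher and 11 lower on EEC+TMA than on TMA (median 0.0057), and under loess 12 were higher and 12 lower. Nudt7, a peroxisomal CoA hydrolase, read 9.13, 8.25 and 8.81, and Hsd17b4, the peroxisomal D-bifunctional enzyme, read 10.06, 9.52 and 10.23.

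Ketone body synthesis, which uses the product of beta-oxidation, showed 3 of 4 genes lower on the TMA array (median -0.18). Of 17 peroxisome biogenesis genes 7 were lower, 2 higher and 8 identical on the TMA array, with a median of 0, and their median was 0 in the other comparisons too. Under quantile normalization the counts of lower genes for TMA minus untreated became 9 of 16, 10 of 24, 2 of 4 and 3 of 17 for these 4 lists in order, against 50.2% of all measured genes.

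Markers of cell types also differed between the arrays. Of the 10 hepatocyte markers 8 were lower on the TMA than on the untreated array, with a median of -0.31. Of all measured genes 37.6% were lower, or 78.4% of those with a mean of at least 8. Serpina1a and Ass1, both among the lower markers, read under 8 on every array. Under loess 6 of the 10 markers were higher and 4 lower, with a median of 0.063. The summed linear level of the 10 hepatocyte markers was 40342, 33553 and 41351 on the untreated, TMA and EEC+TMA arrays. Summed levels of the 8 sinusoidal endothelial markers were 1166, 885 and 1247, those of the 8 stellate cell markers 728, 631 and 705, and those of the 10 Kupffer cell and macrophage markers 557, 637 and 745. All 18 of the endothelial and Kupffer markers were measured on every array. Of the 6 cholangiocyte markers Krt19, Epcam and Cftr were below background on all arrays, with sums of 130, 121 and 121. Of the 7 muscle markers Actn2 was below background on all arrays, with sums of 82.1, 91.0 and 85.6, and of the 7 pancreas and intestine markers 5 were, with sums between 65.9 and 76.8. The part of cell composition in the members' values was not tested.

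The authors' deposited table of 198 probe sets that differ between TMA and no treatment, with a smallest fold of 2.51, held none of the 36 genes. The authors' deposited table of 68 probe sets for EEC+TMA against TMA held 1, Abcd2, at -3.31-fold. In the authors' deposited tables of KEGG maps, the listed genes of fatty acid degradation and PPAR signaling were Cyp4a32 and Cyp4a12b for TMA against no treatment, and Cyp4a32 and Cyp4a10 for EEC+TMA against TMA, none of them members. The false discovery rates in the authors' deposited tables were 0.424 and 0.542 for these maps in the first comparison and 0.550 and 0.591 in the second. The peroxisome map of the authors' deposited table for EEC+TMA against TMA listed 1 gene, the member Abcd2, with a p-value of 1 and a false discovery rate of 1.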

How the data were processed

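Liver RNA of 3 groups was measured on 3 arrays, 1 per group, so nothing was tested. Values are log2 levels of probe sets as the authors deposited them; how they were summarised and normalized is not stated in the labels or files read here. The second deposited table differed from the first by at most 5e-05 (log2). Signed folds (minus the inverse where lower), and the p-values of KEGG maps with their false discovery rates, were copied as the authors deposited them. Differences of deposited log2 values were computed with pandas 2.3.3, over main probe sets, with the highest mean of each symbol's probe sets. Values within 1e-09 counted as identical. Medians and counts used genes measured on both arrays, and the same over all such genes stand beside them. The level of 8 for well expressed genes was chosen after the data were seen. The named genes are all 36 members and, of each list, a few leading genes. Members, lists and settings were chosen with earlier results of these data known. The other settings were median centring, quantile normalization, loess (statsmodels 0.14.6, span 0.3), other background levels, other probe set rules and the second table. Differences, their medians and fold counts, and quantile normalization were tested on simulated data. Those data had independent noise and no shift with level, and the other settings were not run on them. Coordinates are those of the files, whose build no label or header states, except for promoters. Of the 36 members all had the reference table's symbol and 35 overlapped its locus in GRCm38.p6.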

Additional observations from a re-analysis of the deposited data

How the results depend on the processing

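The median of the members for TMA minus untreated, -0.17 as deposited, was 0.031 under quantile normalization and 0.032 under loess. For EEC+TMA minus TMA it was 0.033 and 0.058 in place of 0.22, and the number of members at least 1.5-fold apart was 1 and 3 in place of 7. Shares of all measured genes at least 1.5-fold apart are given for the deposited values only, 6.80% in this comparison. The drop in the members thus cannot be set against that of all genes. With the 99th percentile as background, the count of members at least 2-fold apart in EEC+TMA minus TMA was 0 and that at least 1.5-fold apart in EEC+TMA minus untreated was 0, since Abcd2 no longer counted as measured on the EEC+TMA array. With unique probe sets only, Hadhb in EEC+TMA minus TMA was 0, since another probe set was read. Medians moved by under 0.1 (log2) and the 1.5-fold and 2-fold counts by at most 1 under median centring, no background level, the mean of all probe sets and the second table. Median centring leaves no identical values, so the members split into 10 higher and 25 lower for TMA minus untreated, 28 and 7 for EEC+TMA minus TMA, and 31 and 5 for EEC+TMA minus untreated. The cause of the shifts with scaling was not tested. With 1 array per group, neither animal nor array variation can be estimated. Values near background limit the members Vnn1, Acot3, Cidec and Abcd2, and also Plin4 and Pnpla3. No paired analysis was possible because each group has 1 array.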

Other observations

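Receptors and partners of PPARalpha held genes with wider differences than the receptor itself. Ncor1, a corepressor of nuclear receptors, read 8.01, 7.07 and 7.12 on the untreated, TMA and EEC+TMA arrays, so that both treated arrays lay below the untreated one. Ncoa2, a coactivator, read 7.41, 6.63 and 7.07, and Lpin1, a coactivator and phosphatidate phosphatase, read 7.06, 6.40 and 7.06. Of the 16 measured genes 10 were lower on the TMA than on the untreated array, 4 of them at least 1.5-fold, with a median of -0.10, against 37.6% and 6.38% of all measured genes. Under quantile normalization 9 were lower and 7 higher, and 1 was at least 1.5-fold lower. Hnf4a, Pparg, Rxrb and Esrra read the same value on all 3 arrays. The RXR gene of liver, Rxra, read 8.80, 8.64 and 8.98.

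In the list of lipid droplet and lipolysis genes, 12 of 15 measured genes were higher on the EEC+TMA than on the TMA array, with a median of 0.21, against 36.4% of all measured genes. Under quantile normalization 13 were higher, with a median of 0.086 and none at least 1.5-fold, against 2 as deposited, and 55.0% of all measured genes were higher. Mttp, which loads lipid onto lipoproteins, read 9.13, 8.61 and 9.24 on the untreated, TMA and EEC+TMA arrays. Pnpla3, a lipid droplet protein, read 3.69, 4.40 and 3.69, and was the 1 gene of that list at least 1.5-fold higher on the TMA array. Against no treatment, 10 of 16 genes of that list were higher on the EEC+TMA array and none was lower, against 25.5% and 19.9% of all measured genes. Plin4 (0.39) and Cideb (0.35) were the highest. Plin4 read 3.39, 3.39 and 3.78 against backgrounds of 3.15, 3.25 and 3.16 on the untreated, TMA and EEC+TMA arrays. Pnpla3 also lay near background on the untreated and EEC+TMA arrays.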
